A study of Mus musculus with 4 samples.

Results

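The T cell checkpoint and exhaustion genes described here are 8 genes: the inhibitory receptor genes Pdcd1, Lag3, Tigit, Havcr2 and Ctla4, and the transcription factor genes Tox, Eomes and Tbx21. They were chosen by symbol, and 8 of 8 were found among the 32285 genes of the count tables. Their UMIs (counts of distinct RNA molecules) were summed per library over CD8 T cells, CD4 T cells, dividing T cells and NK cells, which were gated cell by cell on marker genes that include none of the 8. The data were droplet single-cell RNA libraries of tibial fracture calluses of 20-month-old male C57BL/6J mice. Adenosine-containing microgel had been given in 2 libraries (adenosine 1 and adenosine 2) and control microgel, without adenosine, in 2 libraries (control 1 and control 2), and calluses were taken 7 days after treatment. Viable cells were sorted with propidium iodide after red blood cell lysis, and the labels name the tissue bone marrow although they describe callus cells. They do not say whether libraries came from separate or pooled animals, so each p-value rests on library-to-library spread, which may be technical.

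Inhibitory receptors are induced when a T cell is stimulated through its antigen receptor, and they dampen further signalling. When stimulation persists, as in chronic infection or tumours, several of them stay on together with the factor Tox, a state called exhaustion, whereas the T-box factors Eomes and Tbx21 (T-bet) also drive normal effector and memory programmes in CD8 T cells and NK cells. Pdcd1 encodes the receptor for the ligands Cd274 and Pdcd1lg2, Ctla4 a competitor of Cd28 for Cd80 and Cd86, Tigit a receptor for Pvr, Havcr2 a receptor also made by myeloid cells, and Lag3 a relative of Cd4 that binds MHC class II.

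The 5 receptor genes lie on 4 chromosomes of the GRCm38 build, and 3 of them that were high together in adenosine 2 are shown by their promoters (RefSeq, GRCm38.p6), each running 5′ to 3′ through its start site. Promoters of 6 of the 8 genes were matched by symbol. Capitals mark matches, on either strand, to the motifs TGANTCA (AP-1), TGGAAA (NFAT), GGTGTGA (T-box), AAAGGTCA (NR4A) and TGTGGT (Runx).
Pdcd1, chr1:94052504-94052803, minus strand: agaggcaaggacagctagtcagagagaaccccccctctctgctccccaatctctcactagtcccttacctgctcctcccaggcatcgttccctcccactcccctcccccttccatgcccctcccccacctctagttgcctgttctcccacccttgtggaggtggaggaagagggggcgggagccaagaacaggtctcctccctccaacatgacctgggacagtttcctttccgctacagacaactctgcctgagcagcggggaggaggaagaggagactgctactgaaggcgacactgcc
Havcr2, chr11:46454681-46454980, plus strand: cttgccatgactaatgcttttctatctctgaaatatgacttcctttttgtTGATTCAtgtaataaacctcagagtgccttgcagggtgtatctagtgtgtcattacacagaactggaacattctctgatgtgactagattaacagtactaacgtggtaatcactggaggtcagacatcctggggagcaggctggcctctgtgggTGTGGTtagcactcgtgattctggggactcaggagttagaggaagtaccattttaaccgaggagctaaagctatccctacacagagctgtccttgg
Ctla4, chr1:60908775-60909074, plus strand: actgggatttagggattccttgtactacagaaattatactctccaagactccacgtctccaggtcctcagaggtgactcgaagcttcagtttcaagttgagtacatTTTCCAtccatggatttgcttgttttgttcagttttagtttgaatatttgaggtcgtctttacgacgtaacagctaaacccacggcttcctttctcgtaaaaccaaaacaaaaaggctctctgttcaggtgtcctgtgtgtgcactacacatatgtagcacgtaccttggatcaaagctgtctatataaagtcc
Havcr2 held 1 AP-1 match and 1 Runx match, Ctla4 held 1 NFAT match, and the Pdcd1 window held none of the 5 motifs. Of 32851 promoter windows of this length, 7.81% held the AP-1 letters, 21.4% NFAT, 3.98% T-box, 1.51% NR4A and 16.8% Runx, so such matches are common and describe only these letters.

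The 4 libraries kept 31280 cells after filtering, between 6284 and 8677 each, and any pair of libraries shared 11 to 27 barcodes. The gates held 55 and 338 CD8 T cells in adenosine 1 and adenosine 2, against 41 and 11 in control 1 and control 2. There were 30, 44, 20 and 5 CD4 T cells, 3, 90, 1 and 1 dividing T cells and 56, 25, 34 and 7 NK cells in the same libraries. Adenosine 2 stands apart from the other 3 libraries in number of T cells, so the tests of the members and the gene lists are also given without it, whereas dividing T cells and the split by V gene could be described in it alone. Marker genes that the gates do not use were then read in each gate. Bcl11b, a T cell factor, was at 374 to 781 CPM (a gene's UMIs scaled to 1e+06 UMIs of the gate) in CD8 T cells and at 0 to 75.2 CPM in NK cells. Cd40lg, the CD40 ligand of helper T cells, was at 65.0 to 133 CPM in CD4 T cells and at 0 in all CD8 T and NK sums. Fcer1g, an NK and myeloid adaptor, was at 1125 to 1518 CPM in NK cells and 18.02 to 53.4 CPM in CD8 T cells. The neutrophil transcript S100a8 was at 307 to 759 CPM in CD8 T cells and overlapped between treatments there, and the macrophage gene C1qa was at 0 to 3.68 CPM. In NK cells S100a8 was at 1680 and 553 CPM in adenosine 1 and adenosine 2, against 2393 and 260 CPM in control 1 and control 2, and its part in the NK comparisons was not tested.

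In CD8 T cells all 5 inhibitory receptors had their highest level in adenosine 2, and the levels in adenosine 1 were nearer to the controls. Pdcd1 had 60.1 and 170 CPM in adenosine 1 and adenosine 2, against 36.8 and 26.7 CPM in control 1 and control 2. Lag3 had 6.01 and 216 CPM in the adenosine libraries and no UMI in either control. Havcr2 had 15.0 and 159 CPM with adenosine, against 7.37 and 0 CPM in the controls. For these receptors the adenosine libraries did not overlap the controls, but outside adenosine 2 Lag3 rested on 2 UMIs and Havcr2 on 7 in all CD8 T cells. Ctla4 had 63.1 and 136 CPM with adenosine, against 33.2 and 26.7 CPM in the controls. Tigit had 21.0 and 33.4 CPM with adenosine, against 11.1 and 0 CPM in the controls. Both receptors were higher in each adenosine library than in each control library, with Tigit at 10 UMIs outside adenosine 2. That order held for 15.2% of all genes tested between treatments in CD8 T cells, which do not include Lag3, Tigit and Havcr2.

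The 3 transcription factor genes differed in pattern. Tox, an HMG-box factor needed for the exhausted state, had 1883 and 2263 CPM in CD8 T cells of adenosine 1 and adenosine 2, against 1441 and 440 CPM in control 1 and control 2. Eomes had 207 and 190 CPM with adenosine, against 181 and 200 CPM in the controls. Tbx21 had 141 and 116 CPM with adenosine, against 251 and 93.4 CPM in the controls. Tox did not overlap between treatments and its low value came from control 2, which held 11 CD8 T cells, whereas Eomes and Tbx21 overlapped.

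**Figure D1:**
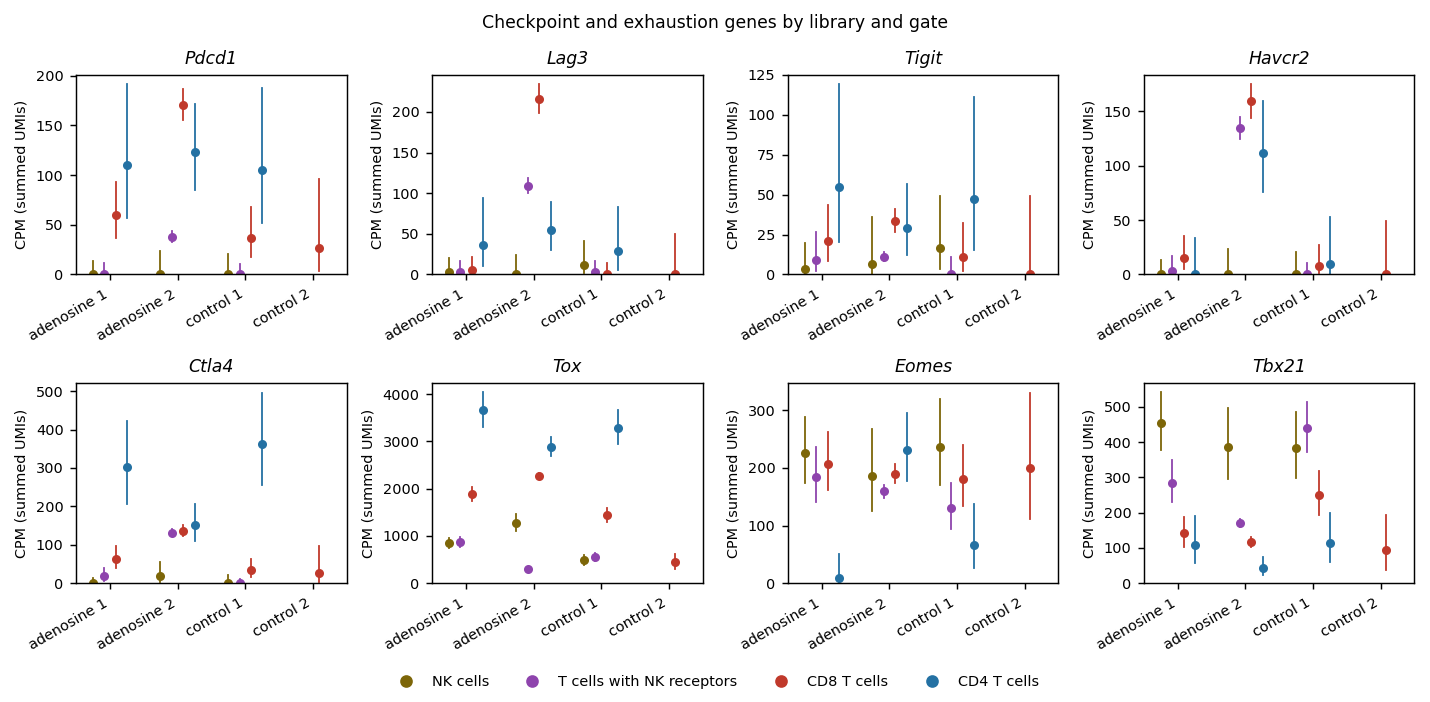
Level of each of the 8 genes (CPM of summed UMIs, linear axis from 0) in NK cells, T cells with NK receptors, CD8 T cells and CD4 T cells of each library; bars are exact Poisson 95% intervals, and sums of fewer than 10 cells are not drawn. The receptor genes Pdcd1, Lag3 and Havcr2 peak in CD8 T cells of adenosine 2 at 170, 216 and 159 CPM, Eomes is level between 181 and 207 CPM in CD8 T cells, and Tbx21 is highest in NK cells of adenosine 1, at 455 CPM.

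No member passed the test between treatments in CD8 T cells (edgeR quasi-likelihood test, Benjamini-Hochberg adjustment over 5162 genes, 2 libraries against 2). The test called 0% of all genes, with 164 genes at an unadjusted p under 0.05 and 0 calls by DESeq2. Pdcd1 had a log2 fold change of 1.87 ± 0.65 (SE, edgeR, unadjusted p = 0.0104, adjusted p = 0.9999). Ctla4 stood at 1.76 ± 0.61 (edgeR, unadjusted p = 0.0107, adjusted p = 0.9999) and Tox at 1.12 ± 0.48 (edgeR, unadjusted p = 0.0313, adjusted p = 0.9999). Eomes stood at 0.07 ± 0.44 and Tbx21 at -0.55 ± 0.48. Lag3, Tigit and Havcr2 did not enter the test, because outside adenosine 2 they were too low for the filter on low counts, in adenosine 1 as in the controls. Both adenosine libraries lay above both controls for 3 of the 5 tested members, a pattern held by 15.2% of all genes tested, and adenosine 2 was the highest library for the same 3, as for 18.2% of all genes tested. The median log2 fold change was 1.12 over the 5 tested members and 0.03 over all genes tested.

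The estimates were also computed without single libraries. Without adenosine 2, Pdcd1 was at 0.74 ± 0.70, Ctla4 at 0.92 ± 0.71 and Tox at 0.88 ± 0.60 on the log2 scale (edgeR adjusted p = 0.999 for each). Without adenosine 1, Pdcd1 rose by 2.41 ± 0.62 (edgeR adjusted p = 0.0118) and Ctla4 by 2.20 ± 0.61 (edgeR adjusted p = 0.0297), in a fit where adenosine 2 is assumed to vary like the controls. Across all gated T and NK cells together no member passed either (edgeR, 0% of 8589 genes, 129 at an unadjusted p under 0.05, 5 calls by DESeq2), with Pdcd1 at 1.60 ± 0.70 and Ctla4 at -0.04 ± 0.40. Without adenosine 1, Pdcd1 passed there as well, at 2.25 (edgeR adjusted p = 0.00911). In that sum Ctla4 was at 101 and 123 CPM with adenosine, against 115 and 121 CPM in the controls, and the groups overlapped.

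Other genes of T cell differentiation were tested in the same CD8 sums, and none passed. The effector list had 11 tested genes of 15, with a median log2 fold change of 0.68, and the naive or memory list had 12 of 12, with a median of -0.85. Ccl5, a chemokine of effector cells, was fitted at 2.83 times its control level with adenosine (edgeR, unadjusted p = 0.00507), and Nkg7, a cytotoxic granule protein, at 1.91 times. Both folds rested on adenosine 2: Ccl5 had 5767 and 23197 CPM in adenosine 1 and adenosine 2, against 5870 and 4696 CPM in the controls, and Nkg7 had 892 and 3134 CPM, against 1083 and 1094 CPM. Without adenosine 2 the log2 fold change was 0.04 for Ccl5 and -0.37 for Nkg7, and the effector median turned to -0.37. Il7r, the receptor of the survival cytokine IL-7, stood at -0.91 ± 0.47, and Satb1, a chromatin organiser of naive T cells, at -0.88 ± 0.45. Among the activation and exhaustion factors, 10 of 17 were tested with a median of 0.87, and among the other inhibitory receptors 10 of 13 with a median of 0.30. The 6 of 9 costimulatory receptors and the 6 of 12 ligands tested had medians of 0.11 and 0.05, and the 4 of 7 regulatory T cell genes had 1.25, with Ikzf2, a zinc finger factor, at 2.04 ± 0.71. Ikzf2 was high in 1 library, with 451 and 76.6 CPM in adenosine 1 and adenosine 2, against 62.6 and 53.4 CPM in the controls. Without adenosine 2 the medians were -0.27 for the naive or memory list, 0.80 for the factors, 0.19 for the other inhibitory receptors, 0.26 for the costimulatory receptors, -0.59 for the ligands and 0.71 for the regulatory genes, against -0.03 over all genes tested, and no gene passed.

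The share of CD8 T cells with a UMI was compared after thinning each cell to 1500 UMIs, since median depth ranged from 5504 UMIs in adenosine 1 to 7670 UMIs in adenosine 2. Pdcd1 was found in 9.09% and 21.5% of thinned CD8 T cells of adenosine 1 and adenosine 2, against 12.2% and 9.09% in control 1 and control 2. These Pdcd1 shares overlapped between treatments, with adenosine 1 below control 1, and so did not follow the CPM order. Gated neutrophils, with a median of 2820 to 3231 UMIs before thinning, held a Pdcd1 UMI in 0% to 0.0622% of cells, so the shares in CD8 T cells were above this background. Lag3 was found in 0% and 22.4% with adenosine and in 0% of both controls. At this thinned depth a count of 0 among 55, 41 and 11 cells allows a share of cells with a UMI of up to 5.45% in adenosine 1, 7.32% in control 1 and 27.3% in control 2 (3 counts over the number of cells). Without thinning, 3.64% of CD8 T cells of adenosine 1 (2 cells) and 0% in both controls held a Lag3 UMI. Havcr2 was found in 5.45% and 16.9% with adenosine, against 2.44% and 0% in the controls. Thinned Ctla4 shares of 7.27% and 14.5% with adenosine, against 7.32% and 18.2% in the controls, did not follow the CPM order, and no order is read from them. Unthinned, Pdcd1 was found in 25.5% of CD8 T cells of adenosine 1, which is not comparable with the thinned shares.

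Several receptor genes were detected in the same cell mainly in adenosine 2. At least 2 of the 5 receptors had a UMI in 10 of 55 CD8 T cells of adenosine 1 (18.2%) and 214 of 338 of adenosine 2 (63.3%), against 0 of 41 in control 1 and 1 of 11 in control 2 (9.09%). All 5 receptors were found together in 21 CD8 T cells, and these 21 were in adenosine 2. In CD4 T cells the share with at least 2 receptors was 33.3% and 40.9% with adenosine, against 40.0% in control 1, and the libraries overlapped. Median depth was 3829.5 to 5379.5 UMIs in CD4 T cells of these libraries, and the shares were lower when cells were thinned to 1500 UMIs. At that depth at least 2 receptors were found in 1.82% and 18.4% of CD8 T cells of adenosine 1 and adenosine 2 (1 and 61 cells), and in 0 cells of both controls. Thinned CD4 T cells stood at 16.7% and 9.09% with adenosine, against 10.0% in control 1.

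**Figure D2:**
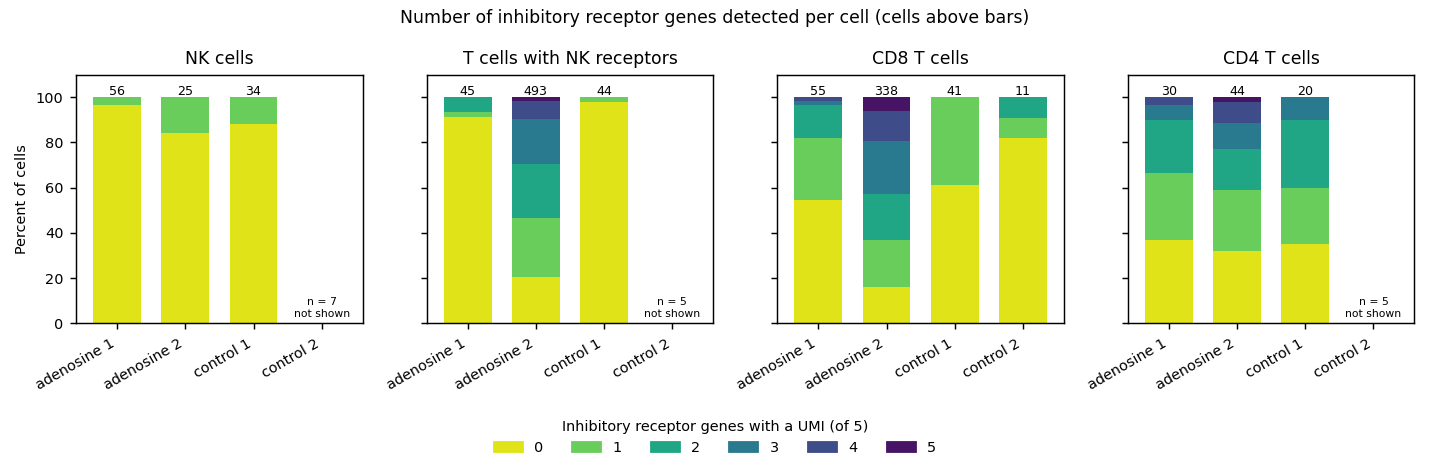
Percent of cells (linear axis, 0 to 100) in which 0 to 5 of the inhibitory receptor genes Pdcd1, Lag3, Tigit, Havcr2 and Ctla4 had a UMI, by library and gate, with the number of cells above each bar and gates under 10 cells not shown. Adenosine 2 has 63.3% of CD8 T cells and 53.3% of T cells with NK receptors at 2 or more receptors, while no NK cell of a drawn library reaches 2. Cells are not thinned in the plot; at 1500 UMIs per cell the 2 shares are 18.4% and 9.98%.

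CD8 T cells were next set against CD4 T cells of the same library in adenosine 1, adenosine 2 and control 1, the libraries with at least 10 cells in both gates. Ctla4 had 63.1, 136 and 33.2 CPM in CD8 T cells of these libraries, against 302, 152 and 361 CPM in CD4 T cells. Tox had 1883, 2263 and 1441 CPM in CD8 T cells, against 3664, 2886 and 3289 CPM in CD4 T cells. Of the 6 members tested, these 2 were lower in CD8 T cells in 3 of 3 libraries, as were 24.3% of all genes tested, and the gap was smallest in adenosine 2. Tbx21, the T-box factor of cytotoxic and type 1 helper cells, had 141, 116 and 251 CPM in CD8 T cells, against 110, 43.3 and 114 CPM in CD4 T cells, and was the 1 member higher in CD8 T cells in 3 of 3 libraries, as were 13.6% of all genes tested.

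None of the 6 tested members was called between CD8 and CD4 T cells, in a test that called 1.3% of 4861 genes higher and 1.44% lower (edgeR quasi-likelihood with library as a block, n = 3 libraries). Tbx21 had a log2 fold change of 1.13 ± 0.28 (edgeR adjusted p = 0.0554), Ctla4 of -1.42 ± 0.43 (edgeR adjusted p = 0.125) and Tox of -0.71 ± 0.24 (edgeR adjusted p = 0.187). Without adenosine 2 the test called Ctla4 lower in CD8 T cells, at -2.60 ± 0.35 (edgeR adjusted p = 1.15e-07), Tox lower, at -0.92 ± 0.19 (edgeR adjusted p = 0.000327), and Eomes higher, at 2.52 ± 0.47 (edgeR adjusted p = 6.91e-05). Without adenosine 1 it called Tbx21 higher, at 1.43 ± 0.36 (edgeR adjusted p = 0.0042), Ctla4 lower, at -1.17 ± 0.33 (edgeR adjusted p = 0.0157), and Lag3 higher, at 1.61 ± 0.46 (edgeR adjusted p = 0.0157). The Lag3 call rested on adenosine 2, since in control 1 Lag3 was at 0 CPM in CD8 T cells against 28.5 CPM in CD4 T cells. With the 3 libraries Pdcd1 stood at -0.15 ± 0.35, Eomes at 0.87 ± 0.45 and Lag3 at 1.08 ± 0.72, none of them called.

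The order of the receptor genes between CD8 and CD4 T cells differed by library. Lag3 had 6.01, 216 and 0 CPM in CD8 T cells of adenosine 1, adenosine 2 and control 1, against 36.5, 54.2 and 28.5 CPM in CD4 T cells. In adenosine 2 it was therefore 3.98 times as high in CD8 T cells (exact 95% interval 2.40 to 7.17, counting error only), and in the other libraries it was lower there, on 7 CD4 UMIs. Pdcd1 in CD8 T cells was at 0.548 (0.255 to 1.23), 1.39 (0.978 to 2.03) and 0.352 (0.134 to 0.914) times its CD4 level in the same 3 libraries. Whether these ratios differ between libraries was not tested. Eomes had 207, 190 and 181 CPM in CD8 T cells, against 9.14, 231 and 66.5 CPM in CD4 T cells, so its CD4 level in adenosine 2 lay above those of the other libraries. Gzmk, a granzyme best known from CD8 T cells, was at 581 CPM in these adenosine 2 CD4 T cells, against 82.2 CPM in adenosine 1 and 85.6 CPM in control 1.

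Around the members, CD4 T cells carried regulatory genes and CD8 T cells cytotoxic ones. Of 8 tested effector genes 5 were higher in CD8 T cells and 0 lower, with a median log2 fold change of 1.98 against 0.02 over all genes. Prf1, the pore-forming protein of killer cells, was higher by 3.44 ± 0.40 (edgeR adjusted p = 0.000291), and Gzmb, a granzyme, by 3.03 ± 0.53 (edgeR adjusted p = 0.00559). Of 5 tested regulatory T cell genes 4 were lower in CD8 T cells: Foxp3, the lineage factor, at 0, 0.379 and 0 CPM, against 137, 46.9 and 162 CPM in CD4 T cells, with Ikzf2, Nrp1 and Tnfrsf18. The CD4 gate thus held Foxp3-bearing cells beside others, and their part in the Ctla4 and Tox levels was not tested. Of 8 costimulatory receptors 3 were lower (Cd40lg, Tnfrsf4 and Tnfrsf18) and none higher. Among the other inhibitory receptors, the NK lectin receptor Klrc1 was higher by 4.58 ± 0.64, and Cd5 and Cd200r1 were lower, of 9 tested. Of 11 activation and exhaustion factors Runx3, the CD8 lineage factor, was higher by 1.10 ± 0.22, and Ikzf2 and Maf were lower. Among the naive or memory genes Satb1 was higher and Slamf6 lower, and none of 5 ligands was called. Without adenosine 2, 4 of 5 tested effector genes were higher in CD8 T cells and 6 of 6 regulatory genes lower, and of the genes named here for the lists only Cd200r1 lost its call while Gzmb was not tested.

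NK cells were set against CD8 T cells of the same 3 libraries. Tbx21 had 455, 386 and 383 CPM in NK cells of adenosine 1, adenosine 2 and control 1, against 141, 116 and 251 CPM in CD8 T cells. Tox had 845, 1267 and 484 CPM in NK cells, against 1883, 2263 and 1441 CPM in CD8 T cells. Pdcd1 had no UMI in NK cells of any of the 4 libraries, and against the floor of 3 counts per library it was at least 5.59-fold, 8.82-fold and 2.18-fold lower there than in CD8 T cells. These 3 of the 4 tested members each differed in the same direction in 3 of 3 libraries. For Pdcd1 that direction was fixed, since with no UMI in NK cells it entered the test through its CD8 T cell level alone. Being higher in NK cells in 3 of 3 libraries, as Tbx21 was, held for 24.9% of all genes tested, and being lower, as Tox and Pdcd1 were, for 14.8%. Eomes had 226, 187 and 236 CPM in NK cells, against 207, 190 and 181 CPM in CD8 T cells, and overlapped.

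The test called 3 of 4 tested members between NK and CD8 T cells, 1 higher where 4.73% of 4863 genes were higher and 2 lower where 3.52% were lower. Pdcd1, 1 of the 2 lower, could enter only through CD8 T cells, so its call adds nothing to its lack of UMIs in NK cells. Tbx21 was higher in NK cells by 1.24 ± 0.26 on the log2 scale (edgeR adjusted p = 0.00448), and Tox was lower at -1.29 ± 0.20 (edgeR adjusted p = 0.000304), both in 3 of 3 libraries. Pdcd1 was lower (edgeR adjusted p = 3.41e-05), and Eomes differed by 0.04 ± 0.23 (edgeR adjusted p = 0.964). Without adenosine 2 the call of Pdcd1 held (edgeR adjusted p = 3.13e-06), and the calls of Tbx21 (1.07, edgeR adjusted p = 0.000222) and Tox (-1.42, edgeR adjusted p = 7.46e-11) held. The call of Tbx21 was lost without adenosine 1 (1.06, edgeR adjusted p = 0.108), and with T cells that carry NK receptors counted as CD8 T cells both were lost, Tox at -0.78 (edgeR adjusted p = 0.0915) and Tbx21 at 0.94 (edgeR adjusted p = 0.0504).

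**Figure D3:**
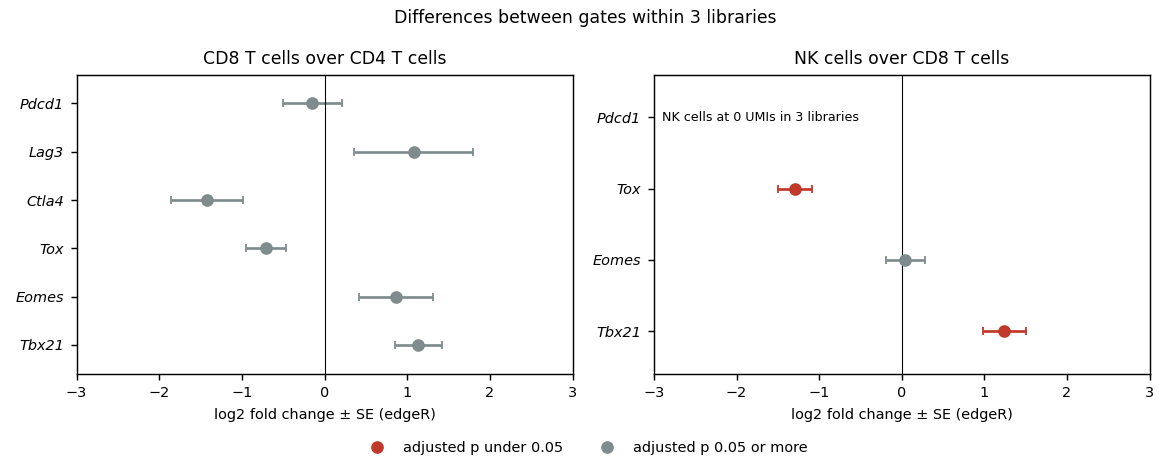
Log2 fold change of the tested members (x axis, points with SE, edgeR, n = 3 libraries) in CD8 T cells over CD4 T cells and in NK cells over CD8 T cells. Between NK and CD8 T cells Tbx21 lies at 1.24 and Tox at -1.29, past the threshold, and Pdcd1 is marked without a point because NK cells held no UMI of it; no member passes between CD8 and CD4 T cells.

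The receptors other than Pdcd1 were also scarce in NK cells. Lag3 had 1, 0 and 2 UMIs in NK cells of the 3 libraries, Tigit 1, 1 and 3, Ctla4 0, 3 and 0, and Havcr2 none. These genes did not enter the test, because their CD8 T cell levels also passed the filter on low counts in too few libraries. Of 13 other inhibitory receptors tested, the NK receptors Klrb1c (also part of the gate) and Cd244a were higher, Cd244a by 4.27 ± 0.37 (edgeR adjusted p = 2.74e-07), and Cd5, Cd101, Btla and Entpd1 were lower. Of 9 effector genes Xcl1, a chemokine for dendritic cells, and Gzma were higher and Gzmk and Ccl5 lower. Among the naive or memory genes Slamf6, S1pr1, Il7r and Lef1 were lower. Of 11 activation and exhaustion factors Irf8 and Zeb2 were higher and Maf and Batf lower. Of 6 costimulatory receptors Il2rb was higher and Cd28 and Icos lower, and none of 2 regulatory genes and 4 ligands was called. Without adenosine 2 the calls of Entpd1, Batf and Icos were lost, and among the effector genes Gzmb, Prf1 and Ccl4 were also called higher in NK cells.

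Dividing T cells could be described in adenosine 2 alone, with 90 cells, as the other libraries held 1 to 3. Of the 90, 75 carried a CD8 gene without Cd4 and 4 carried Cd4 without a CD8 gene. The gate is thus not made up of CD8 T cells alone, unlike the gate it is set against. Pdcd1 was at 202 CPM in dividing T cells, against 170 CPM in non-dividing CD8 T cells of the same library, a ratio of 1.18 (exact 95% interval 1.02 to 1.37, counting error only). Lag3 was at 180 CPM against 216 CPM (0.833, 0.719 to 0.964) and Tbx21 at 51.2 CPM against 116 CPM (0.441, 0.340 to 0.567). Ctla4 was at 107 CPM against 136 CPM (0.786, 0.649 to 0.948) and Tox at 2407 CPM against 2263 CPM (1.06, 1.02 to 1.11). Tbx21 thus had the lowest ratio of the 8 genes, while the intervals of Eomes, Havcr2 and Tigit included 1. At least 2 receptors were found in 83.3% of dividing T cells, whose median depth was 15406 UMIs, and in 21.3% after thinning to 1500 UMIs, against 18.4% of thinned CD8 T cells of the same library. S100a8 made up at least 1% of the UMIs in 4 of the 90 cells, and without them Pdcd1 was at 206 CPM and Tbx21 at 51.3 CPM. With 1 library this comparison has no test.

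The gate of T cells left out cells with at least 2 NK receptor genes, and these were described after their values had been seen. They numbered 45 and 493 in adenosine 1 and adenosine 2, against 44 and 5 in control 1 and control 2, and made up 6.07% of the cells of adenosine 2. The cells of adenosine 2 carried Cd8b1, the CD8 beta chain, in 94.3% and the NK adaptor Fcer1g in 33.3%, whereas those of adenosine 1 carried them in 8.89% and 77.8% and those of control 1 in 27.3% and 79.5%. Lag3 was at 3.07 and 109 CPM in these cells with adenosine, against 2.89 and 0 CPM in the controls. Havcr2 was at 3.07 and 135 CPM with adenosine and at 0 in both controls, and Ctla4 was at 18.4 and 132 CPM, against 0 and 19.8 CPM. Pdcd1 was at 0 and 37.8 CPM with adenosine and had no UMI in the controls. These receptors were again highest in adenosine 2, but Tox ran the other way, at 861 and 295 CPM with adenosine, against 554 and 415 CPM in the controls. Within adenosine 2, Pdcd1 in these cells was 0.222 times its level in the CD8 T cell gate (exact 95% interval 0.187 to 0.264, counting error only).

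In adenosine 2 most of these cells with a V gene UMI had the same V genes. Of 227 cells with a UMI of any alpha chain V gene, 210 had Trav16 (92.5%, exact 95% interval 88.3 to 95.6), and of 84 cells with any beta chain V gene, 82 had Trbv29 (97.6%, 91.7 to 99.7). Of 55 CD8-bearing T cells with Trbv29 and any alpha V gene, 52 also had Trav16. The other gates of adenosine 2 held the same V genes: Trav16 was found in 60.9% of CD8 T cells and 68.2% of dividing T cells with an alpha V gene, and Trbv29 in 32.2% and 9.38% of those with a beta V gene. In control 1, 1 of 5 T cells with NK receptors and a beta V gene had Trbv29. There 0 of 10 such cells with an alpha V gene had Trav16, and in adenosine 1, 0 of 1. Other gates outside adenosine 2 also held these V genes, in few cells. In CD8 T cells of control 2, Trav16 was in 1 of 2 cells with an alpha V gene. Trbv29 was in 1 of 2 of those with a beta V gene. For Trav16 the CD8 T cells of adenosine 1 and control 1 stood at 0 of 7 and 0 of 9, and CD4 T cells of adenosine 1 at 1 of 3. Trav16 has near-identical copies in the mouse genome, so which copy was counted is uncertain.

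The 8 genes were then split by V gene within the CD8-bearing T cells of adenosine 2, over both gates and including dividing cells. Pdcd1 was at 61.2 CPM (exact 95% interval 53.7 to 69.5) in 327 cells with Trav16 or Trbv29, against 246 CPM (219 to 275) in 109 cells with other V genes. Tox was at 498 CPM (476 to 520) in the cells with Trav16 or Trbv29, against 2765 CPM (2675 to 2858) in those with other V genes. Lag3 was at 134 CPM against 205 CPM, and Tigit at 13.8 CPM against 33.8 CPM. Eomes was at 160 CPM (147 to 173) against 215 CPM (191 to 242). These 5 genes were thus lower in the cells with Trav16 or Trbv29, beyond counting error. Tbx21 was higher in them, at 154 CPM against 71.5 CPM, and so was Ctla4, at 135 CPM against 88.0 CPM. Havcr2 was at 153 CPM against 147 CPM, with overlapping intervals. The classes also differed in other ways: 75.8% of cells with Trav16 or Trbv29 lay in the NK receptor gate, against 11.9% of those with other V genes, and 22.6% were dividing, against 29.4%. Cells of 1 library are not replicates, so this has no test.

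**Figure D4:**
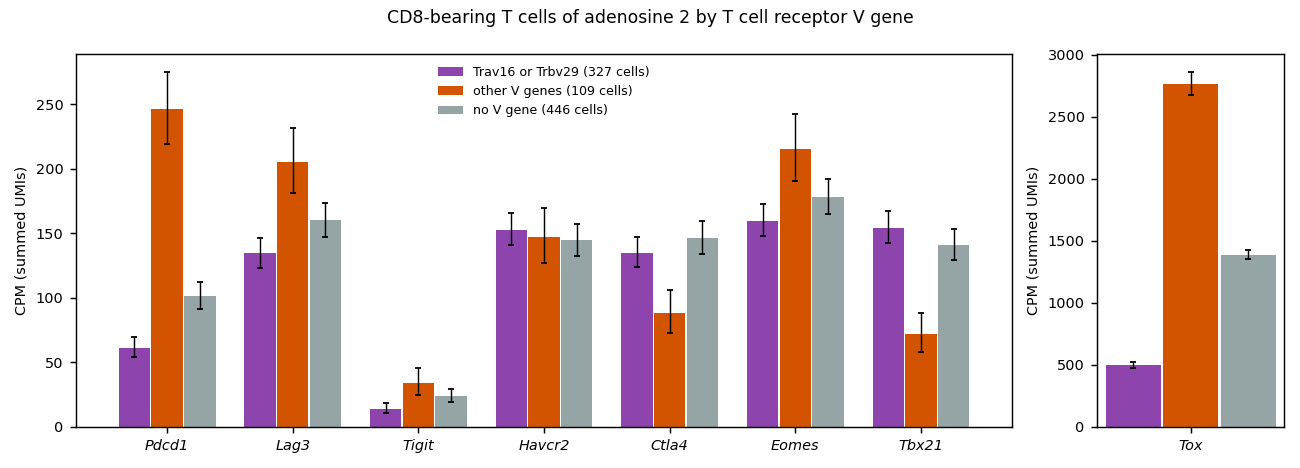
Level of the 8 genes (CPM of summed UMIs, bars from 0, exact Poisson 95% intervals; Tox on its own axis) in CD8-bearing T cells of adenosine 2 with Trav16 or Trbv29, with other V genes and with no V gene UMI. Pdcd1 and Tox are lower in the cells with Trav16 or Trbv29, at 61.2 and 498 CPM, than in those with other V genes, at 246 and 2765 CPM, while Havcr2 is near level at 153 and 147 CPM.

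UMIs outside the T and NK gates and the T cells with NK receptors were counted next, and may include T and NK cells that entered no gate. In each of the 3 libraries other than adenosine 2, Havcr2 and Lag3 had at least 87.3% of their UMIs there, and no other member had more than 55.4%. In adenosine 1, control 1 and control 2, 99.0%, 98.6% and 99.9% of Havcr2 UMIs lay outside both the T and NK gates and the T cells with NK receptors, against 32.7% in adenosine 2, where a further 33.4% lay in those T cells. In macrophages and dendritic cells Havcr2 was at 39.9 and 13.9 CPM in adenosine 1 and adenosine 2, against 27.9 and 108 CPM in control 1 and control 2. In neutrophils it was at 8.34 and 4.14 CPM with adenosine, against 5.78 and 40.1 CPM in the controls. The myeloid level was thus highest in control 2 and lowest in adenosine 2, opposite to the CD8 T cell level, and treatments overlapped in macrophages and dendritic cells and in neutrophils. Of Lag3 UMIs, 92.3% and 28.4% lay outside these gates in adenosine 1 and adenosine 2, against 87.3% and 100% in control 1 and control 2. In macrophages and dendritic cells Lag3 was at 4.26 and 7.44 CPM with adenosine, against 4.65 and 3.87 CPM in the controls. Its CD8 T cell level in the libraries other than adenosine 2 was 6.01, 0 and 0 CPM, on 2 UMIs in all. Lag3 was at 21.7 CPM in B cells of adenosine 1, on 73 UMIs of which 40 came from 1 cell, and at 0 to 2.75 CPM in B cells of the other libraries.

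**Figure D5:**
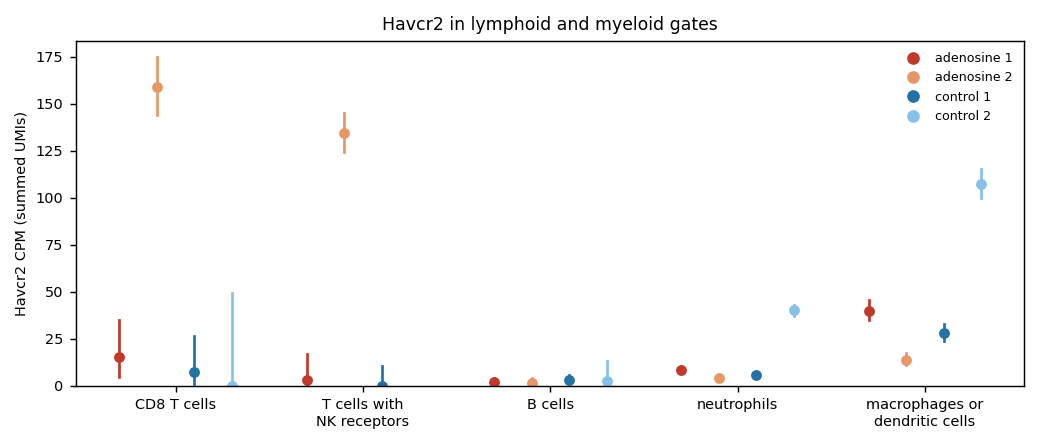
Havcr2 level (CPM of summed UMIs, linear axis from 0, exact Poisson 95% intervals) by gate, with the adenosine libraries left of the controls and sums of fewer than 10 cells not drawn. In CD8 T cells adenosine 2 is highest at 159 CPM, and in macrophages or dendritic cells control 2 is highest at 108 CPM.

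The ligands Cd274, Cd80 and Lgals9 were present in the myeloid gates of each library, and also in CD8 T cells and B cells. Cd274, the main ligand of the Pdcd1 product, was at 38.6 and 97.9 CPM in neutrophils of adenosine 1 and adenosine 2, against 19.7 and 179 CPM in control 1 and control 2. Cd80 was at 22.4 and 18.4 CPM in neutrophils with adenosine, against 27.2 and 160 CPM in the controls. The treatments overlapped for Cd274, and Cd80 lay below both controls in both adenosine libraries, with control 2 far above the other 3 libraries. Lgals9, a proposed ligand of the Havcr2 product, was at 85.0 and 68.9 CPM with adenosine, against 79.0 and 68.7 CPM in the controls. Fgl1, a liver-derived ligand of the Lag3 product, was at or near 0 in each gate.

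Genes with the most similar pattern were found over 11 sums of gate and library, from all 4 libraries, among 6703 genes. The sums share libraries and cell types, so Pearson's r of log2(CPM + 10) is a description. The nearest gene was Ptpn13 for Pdcd1 (r = 0.974), Coro1a for Lag3 (0.889), Slc22a15 for Tigit (0.971), Sh2d1a for Havcr2 (0.960) and Ube2b for Ctla4 (0.963). Among the factors it was Mllt3 for Tox (0.928), Exosc7 for Eomes (0.942) and Il18rap for Tbx21 (0.969). Trac, the T cell receptor alpha constant gene, was also among the 3 nearest to Pdcd1 (0.951). The gates use Trac, and NK cells were required to hold no UMI of it, so this r is partly set by the gating. Capg, which is listed with the regulatory genes, was among those nearest to Ctla4 (0.958). Over the 7 sums without adenosine 2, r was 0.555 for Lag3 with Coro1a and 0.782 for Havcr2 with Sh2d1a, on 12 and 8 UMIs, and 0.950 to 0.983 for the other 6 pairs. Of these 6, Tigit rested on 25 UMIs and Pdcd1 on 55. The 7 sums are part of the 11 by which the pairs were picked, so they are no independent check.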

How the data were processed

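The authors deposited whole-number UMI counts for each gene in each cell of 4 libraries, without normalization; per the submitters' processing notes they used Cell Ranger 7.0.0 and bcl2fastq with build mm10, and the handling of intronic reads is not given in the sources used here. Libraries held 32277757 to 68117846 UMIs. Cells with fewer than 200 genes or at least 10% mitochondrial UMIs were removed, and the highest Scrublet scores (scanpy 1.11.5) were removed at 0.8% per 1000 barcodes, because the automatic threshold marked 0% of cells in 3 libraries. T cells needed 2 of 6 T cell receptor complex genes and fewer than 2 of 7 NK receptor genes, NK cells at least 2 of those 7 and no Cd3e, Cd3d or Trac, and dividing cells 3 of 10 cycle genes; coreceptor UMIs split CD8 from CD4. Counts were summed per library and gate and tested with edgeR 4.0.16 (filterByExpr, TMM, quasi-likelihood, two-sided, Benjamini-Hochberg over all genes, threshold 0.05), with DESeq2 1.42.0 as an alternative, on sums of at least 10 cells. The fits were tried on simulated counts with large known changes and the same spread for every gene, which checks the code and not its power on these libraries. Comparisons between treatments in CD4, dividing and NK cells, and between dividing and non-dividing T cells, were not fitted for lack of cells. Intervals are exact at 95%, limits for a count of 0 in the text on shares are 3 counts, and both cover counting error only. Members and gene lists were chosen with earlier results of these data known. Named list genes are up to 4 per list and direction past the threshold by log2 fold change, and otherwise up to 2 with the highest CPM. The descriptions of T cells with NK receptors and of V genes, and single genes named there or for the CD4 gate (Gzmk, Cd8b1, Fcer1g), were chosen after seeing the data. One gene of the naive or memory list is not reported here.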

Additional observations from a re-analysis of the deposited data

Results flagged for a closer look

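T cells with at least 2 NK receptor genes, which entered the comparisons between treatments and gates as an added alternative alone, made up 6.07% of the cells of adenosine 2, against 0.549% in adenosine 1, 0.507% in control 1 and 0.0796% in control 2. In them, adenosine 2 had 37.8 CPM of Pdcd1, 109 CPM of Lag3, 135 CPM of Havcr2 and 132 CPM of Ctla4, above control 1 beyond counting error. Tox was above control 1 in adenosine 1 alone, at 861 CPM. Control 2 held 5 such cells, too few for this comparison. Trav16 was found in 92.5% of these adenosine 2 cells with an alpha V gene UMI, against 0 of 10 in control 1, which allows up to 30.8% by the exact interval.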

How the results depend on the processing

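Adenosine 2 holds 338 of 445 CD8 T cells, and control 2 holds 11, so depth limits Lag3, Tigit and Havcr2 outside adenosine 2. The T cells with NK receptors were added as an alternative after seeing the data. Where a call or direction changed, the cause was not tested.

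Between treatments, all gated T and NK cells gave 0 calls, 5 with DESeq2, 68 without the filter on low counts and 0 to 153 when 1 library was left out (153 without adenosine 1, 16 without adenosine 2, 3 without control 1). CD8 T cells gave 0 calls, 40 without the filter, 0 to 79 when 1 library was left out (79 without adenosine 1, 5 without control 1) and 5 with T cells that carry NK receptors included and adenosine 2 left out. The labels share replicate numbers, and the deviations of same-numbered libraries correlated at 0.357 (all gated) and 0.249 (CD8), with only 2 pairs and no label of a shared animal or day, too few to treat the libraries as paired. With the replicate number as a block, all gated cells gave 0 calls and CD8 T cells 34, among them Tox at 1.27 (edgeR adjusted p = 0.00506).

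CD8 against CD4 T cells gave 133 calls, 85 with DESeq2, 373 without the filter, 88 with stricter gates, 241 with NK receptors included, 50 without the library block and 174 to 440 when 1 library was left out (440 without adenosine 2). NK against CD8 T cells gave 401 calls, 221 with DESeq2, 660 without the filter, 247 without the library block, where Tox stood at -1.23 (edgeR adjusted p = 0.0559), and 226 to 630 when 1 library was left out (226 without adenosine 1, 630 without adenosine 2).

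The directions that turned were of members not called. In all gated cells Ctla4 (-0.04) turned to 0.0914 without the filter, 0.31 without doublet removal and 0.27 with NK receptors, and ranged from -0.32 to 0.15 when 1 library was left out, turning without adenosine 1 and without control 2 (0.0357). There Tbx21 (0.03) turned to -0.0404 with stricter gates and -0.0461 with NK receptors, and ranged from -0.65 to 0.64, turning without adenosine 1 and without control 2 (-0.35). In CD8 T cells Eomes (0.07) turned to -0.0693 with stricter gates and ranged from -0.0042 to 0.14, and Tbx21 (-0.55) ranged from -0.97 to 0.46, both turning without control 1. Between CD8 and CD4, Lag3 (1.08) turned to -1.77 with DESeq2, and Pdcd1 (-0.15) turned to 0.0841 with stricter gates and ranged from -0.99 to 0.16, turning without adenosine 1 (0.0642) and without control 1. Between NK and CD8, Eomes (0.04) ranged from -0.0682 to 0.16, turning without control 1.

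Without thinning, the mean shares of CD8 T cells with a UMI in the adenosine libraries were 37.0% for Pdcd1, 29.5% for Lag3, 14.9% for Tigit, 25.1% for Havcr2, 35.7% for Ctla4, 79.9% for Tox, 56.7% for Eomes and 46.9% for Tbx21. Averaged per cell, Tox was at 2346 CPM and Eomes at 222 CPM there.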
